A study of Mytilus galloprovincialis with 16 samples.

Results

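Of 1920 cDNA clones on a mussel array, 60 (3.12%) fell in relative mRNA abundance from gonad stage 2 to stage 3 and again from stage 3 to stage 4 in the male mantle. They were chosen on the log2 ratios that the authors deposited, with the later stage always over the earlier one. A member had a mean of -0.3 or lower on the 4 Stage3/Stage2 arrays and on the 4 Stage4/Stage3 arrays, a negative ratio on each of these arrays, and a mean below 0.3 on the 4 Stage2/Stage1 arrays. The 12 arrays of these 3 pairs therefore chose the clones, and their values are given as a description with no test. The 4 Stage4/Stage1 arrays took no part in the choice and are the only ones on which the clones were tested.

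The animals were male Mytilus galloprovincialis taken from the wild in the Bizerta Lagoon (Tunisia), with total RNA of the mantle of single individuals. Stage 1 was the early stage (November), stage 2 development (January), stage 3 ripe (February) and stage 4 spawning (March), so stage and month cannot be told apart. The 16 arrays each held RNA of 1 mussel per dye, in 4 pairs of stages with 4 arrays each, and the later stage was in Cy5 on 2 arrays of each pair and in Cy3 on the other 2. On 1 array (Stage3/Stage2 replicate 1) the labels disagree about the month, and the stage in its title was used. The paper describes a loop of stages in 4 biological replicates of single individuals, in which a mussel's RNA could lie on more than 1 array. The labels do not say whether a mussel served on more than 1 array, so errors and p-values measure the spread between arrays. The Stage4/Stage1 arrays may thus share RNA with the arrays that chose the clones. None of the animals had a treatment or an altered genotype, and their age is not given in the sources used here.

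The mantle of mussels is both the site of the gonad and a store of reserves. In males the gonad grows into it as follicles in which spermatogonia divide and mature to sperm. Between the follicles lies a connective tissue of vesicular cells, which hold glycogen, and adipogranular cells, which hold lipid and protein, and it is known to shrink as the follicles fill. Each clone is a spotted 3' cDNA probe from libraries of several mussel tissues. The files name no gene for any clone, so the 60 clones are described by their behaviour, and no function is given to them. In a bulk sample of mantle, fewer cells of a type and less RNA per cell cannot be told apart.

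The limits of the rule were met as follows. In all, 84 clones had both means at -0.3 or lower, 74 of these were negative on all 8 arrays, and 14 of the 74 were left out by their Stage2/Stage1 mean. The members nearest to the limits had a Stage3/Stage2 mean of -0.378, a Stage4/Stage3 mean of -0.305 and a Stage2/Stage1 mean of 0.286. Just outside, the clones failing a single condition began at -0.296 for Stage3/Stage2 (5 clones), at -0.297 for Stage4/Stage3 (11 clones) and at 0.307 for Stage2/Stage1 (14 clones). Membership thus had no gap at the Stage4/Stage3 limit or at the Stage2/Stage1 limit.

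From stage 2 to stage 3 the clones had a median log2 relative expression of -1.55, or 2.93-fold lower in the ripe gonad. The middle 50% of the clones lay between -2.27 and -1.03, and the whole set between -2.68 and -0.378. The largest fall was 6.43-fold. A fall of at least 2-fold was found for 46 of the 60 clones and one of at least 4-fold for 21, against 4.27% and 1.61% of all 1920 clones, and the rule itself used these values. From stage 3 to stage 4 the median was -0.88 (1.84-fold lower at spawning), with the middle 50% between -1.38 and -0.506. Here 26 clones fell at least 2-fold (3.02% of all clones) and 1 at least 4-fold, with a largest fall of 4.14-fold.

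In the deposited values, the fall into the ripe stage was the larger one for 59 of the 60 clones by their means. With print-tip loess it was still larger by the median (-1.33 against -0.885), but several clones fell more in the second step. Among them were Myt01-005G02 (-0.227, then -1.5) and Myt01-007H10 (-1.68, then -2.13). In the deposited values the first step was also the more variable one: the median SD over the 4 arrays was 0.567 for Stage3/Stage2 and 0.214 for Stage4/Stage3. For 18 clones all 4 Stage3/Stage2 ratios lay below all 4 Stage4/Stage3 ratios, for 0 clones the reverse held, and for the remaining clones the arrays of the pairs overlapped. The rule chose the clones on both sets of ratios, and no such counts over all clones are given beside these. Clones that fell far in the first step also fell far in the second (r = 0.844 across the 60 clones). This r is a description across clones that share their arrays and were chosen on both values.

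Before these steps, from stage 1 to stage 2, the clones were slightly lower in stage 2. Their median log2 ratio was -0.344 (1.27-fold lower), with the middle 50% between -0.431 and -0.154, where the median of all clones was -0.00396. The mean was below 0 for 52 of the 60 clones. The ratio was negative on all 4 arrays for 21 of them, against 12.8% of all clones, and the rule used these values too, since it capped them from above. The median SD over arrays was 0.339, as large as the median ratio itself. The direction of this median depended on the normalization: it was -0.237 with print-tip loess and turned to 0.0448 with median centring.

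**Figure D1:**
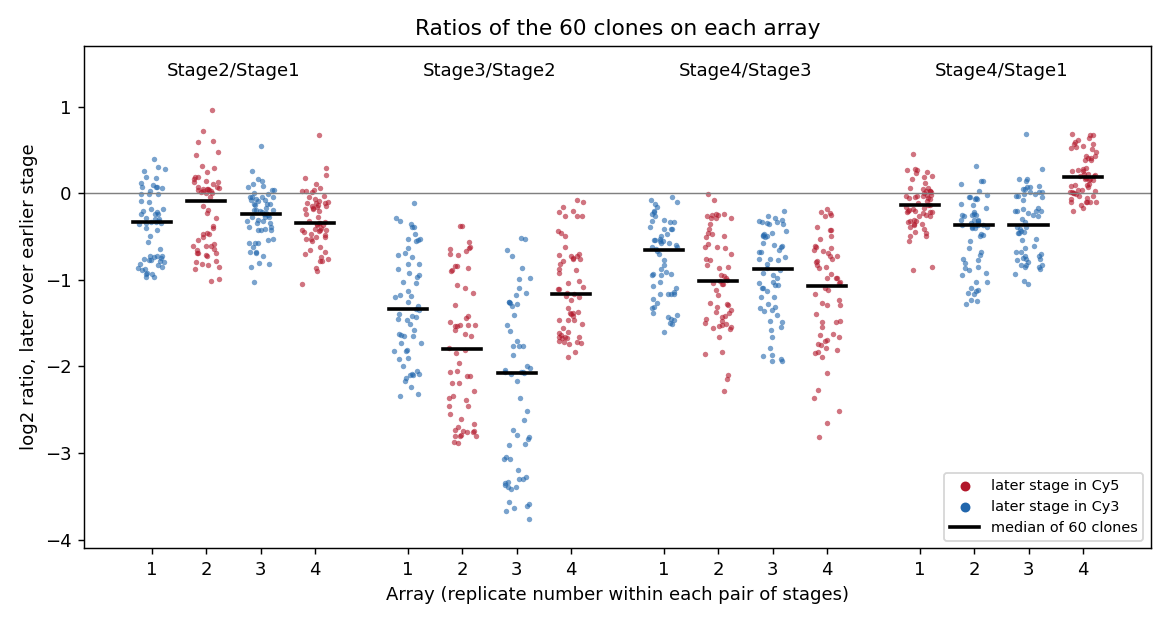
Each point is the deposited log2 ratio of 1 of the 60 clones on 1 array, later over earlier stage, coloured by the dye of the later stage, and the bars are array medians. All 60 clones lie below 0 on the 4 Stage3/Stage2 arrays (medians -2.08 to -1.16) and the 4 Stage4/Stage3 arrays (medians -1.07 to -0.653), which the rule asked for, while the Stage4/Stage1 medians run from -0.37 to 0.182.

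The arrays of a pair differed in how deep the fall was. On Stage3/Stage2 the median of the 60 clones was -1.34 on replicate 1, -1.80 on replicate 2, -2.08 on replicate 3 and -1.16 on replicate 4. Replicate 3 was the deepest of these, with single clones down to -3.76. On Stage4/Stage3 the medians were -0.653, -1.01, -0.877 and -1.07 for replicates 1 to 4. These lay closer together, and neither dye was deeper on both pairs: averaged over the 2 arrays of each dye, the median was -1.45 with the later stage in Cy5 and -1.71 with it in Cy3 for Stage3/Stage2, and -1.02 and -0.772 for Stage4/Stage3.

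Clone Myt01-012A11 had the lowest sum of both steps in the deposited values. Its Stage3/Stage2 log2 ratio was -2.17, -2.87, -3.63 and -1.61 on replicates 1 to 4, a mean of -2.57 ± 0.877 (SD, n = 4) or 5.94-fold. Its Stage4/Stage3 log2 ratio was -1.60, -1.57, -1.92 and -1.84, a mean of -1.73 ± 0.173 (SD, n = 4) or 3.32-fold. In these deposited values the second step was thus nearly the same on each array, while the first ranged over more than 2 log2 units. With print-tip loess the second step was smaller and less even, at -0.434, -0.902, -1.34 and -1.4 (mean -1.02). The mean of the first step was then -2.71. On the Stage2/Stage1 arrays the deposited ratios of the clone were -0.78, -0.397, -0.12 and 0.034, with 3 of 4 below 0 (mean -0.316 ± 0.357).

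Clone Myt01-013H05 came next and followed nearly the same course. Its Stage3/Stage2 log2 ratio was -1.90, -2.80, -3.62 and -1.68, a mean of -2.50 ± 0.889 (SD, n = 4) or 5.65-fold. On the Stage4/Stage3 arrays it was -1.32, -1.66, -1.87 and -2.07, a mean of -1.73 ± 0.321 (SD, n = 4) or 3.32-fold. With print-tip loess the means of its first and second step were -2.63 and -2.13. Both clones were lowest on replicate 3 and highest on replicate 4 of Stage3/Stage2. From stage 1 to stage 2 Myt01-013H05 gave 0.03, 0.287, -0.325 and -0.112, on both sides of 0 (mean -0.0298 ± 0.257). On all 16 arrays both dyes gave a signal well above background for each of these clones, and none of it was saturated.

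The remaining named clones were the members with the highest direct Stage4/Stage1 ratio, which for Myt01-009H09 was a value at background, and both lay near the limits of the rule. Myt01-011C11 had Stage3/Stage2 log2 ratios of -0.115, -0.646, -0.535 and -0.265 (mean -0.39 ± 0.243, SD, n = 4) and Stage4/Stage3 log2 ratios of -0.075, -0.0114, -0.605 and -0.632 (mean -0.331 ± 0.333). Its SD of the second step was as large as the mean. Its Stage2/Stage1 log2 ratios of -0.205, 0.603, -0.545 and 0.674 were positive on the arrays with stage 2 in Cy5 and negative on those with stage 2 in Cy3. With print-tip loess its Stage3/Stage2 mean was -0.204, short of the limit.

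Clone Myt01-009H09 was dim. It had Stage3/Stage2 log2 ratios of -0.355, -0.567, -0.515 and -0.0752 (mean -0.378 ± 0.221, SD, n = 4) and Stage4/Stage3 log2 ratios of -0.235, -0.359, -0.44 and -0.386 (mean -0.355 ± 0.0868). Its stage 2 channel was well above background on 4 of 4 Stage3/Stage2 arrays, but its stage 3 channel on 1 of these 4. On the Stage4/Stage3 arrays each channel was well above background on 1 of 4, so its second step is a difference measured largely at background. On the Stage2/Stage1 and Stage4/Stage1 arrays it was well above background in neither channel, so no fold change is given for it there.

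**Figure D2:**
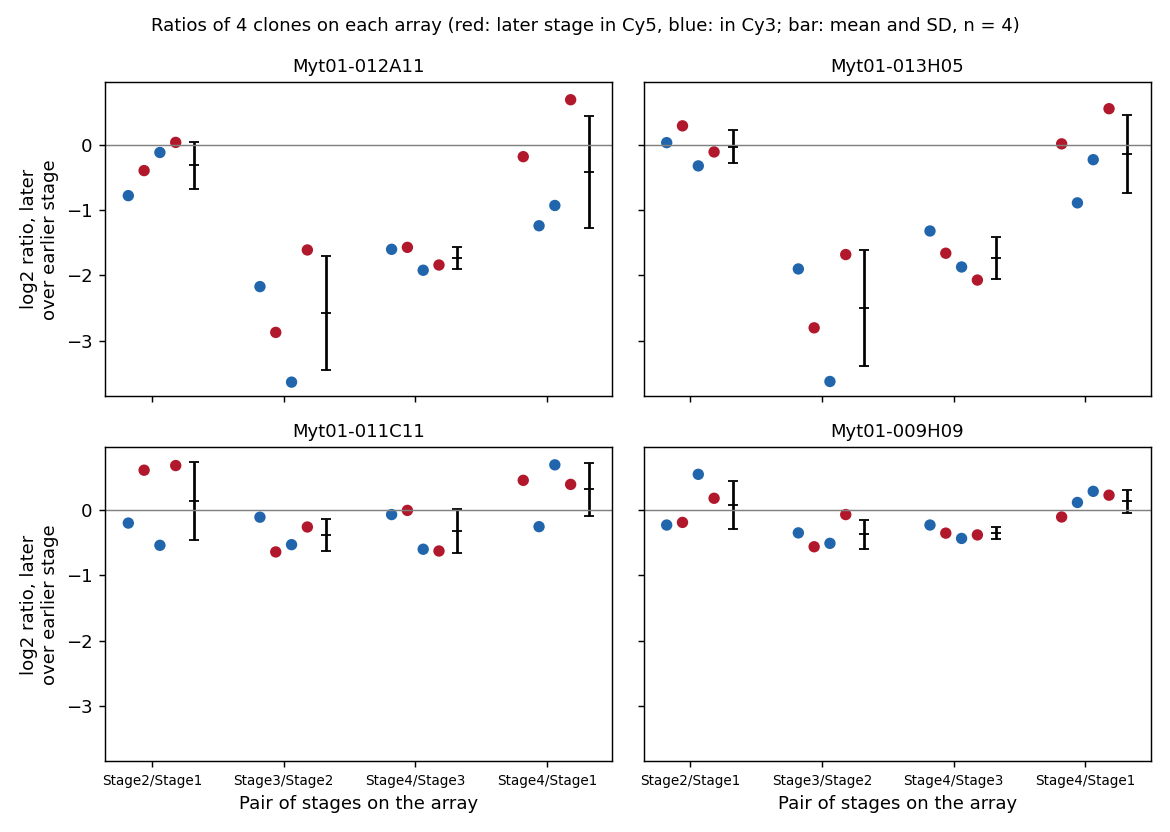
Deposited log2 ratios (later over earlier stage) of the 4 named clones on each of the 16 arrays, coloured by the dye of the later stage, with the mean and SD over the 4 arrays of a pair. Myt01-012A11 and Myt01-013H05 fall by means of -2.57 and -2.50 and then by -1.73 each, while their direct Stage4/Stage1 ratios scatter on both sides of 0.

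The direct arrays of stage 4 against stage 1 asked how far the clones lay from their early level once spawning had begun. On them the median of the 60 clones was -0.196 (1.15-fold lower at stage 4), with the middle 50% between -0.305 and -0.0886 and the whole set between -0.547 and 0.315. The mean was below 0 for 54 of the 60 clones, against 48.4% of all clones. The spread between arrays was larger than this shift, with a median SD over arrays of 0.335. Only 4 of the 60 clones were below 0 on all 4 arrays (4.74% of all clones were) and 0 were above 0 on all 4. No share of all clones is given for the latter.

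The 4 direct arrays did not point one way. The median of the 60 clones was -0.136 on replicate 1, -0.37 on replicate 2, -0.363 on replicate 3 and 0.182 on replicate 4, with 42, 55, 47 and 14 of the 60 clones below 0. On replicate 4, unlike the others, most of the clones were thus higher in stage 4. Averaged by dye, the median was -0.364 over the 2 arrays with stage 4 in Cy3 and -0.00483 over the 2 arrays with stage 4 in Cy5. Across the 60 clones the ratio also moved with brightness, at r = -0.145, -0.774, -0.411 and 0.585 on replicates 1 to 4, and the part of brightness in these ratios was not tested.

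In limma's moderated test on the scanner values of these 4 arrays, with print-tip loess, 0 of the 60 clones and 0 of all 1920 clones (0.0%) were called at a Benjamini-Hochberg adjusted p below 0.05, and the smallest adjusted p was 0.892. At an unadjusted p below 0.05 there were 2 of the 60 clones, 1 of them lower in stage 4 and the other, Myt01-011C11, higher, against 1.67% of all clones in either direction and 0.521% lower. The median of the 60 clones in these values was -0.144. Without replicate 4 it was -0.261, with 19 of the 60 clones at an unadjusted p below 0.05 against 1.93% of all clones. Without replicate 2 it was -0.0421, with 1 of the 60 at that level against 3.96% of all clones. Without replicate 1 or 3 there were 0 of the 60, where the shares of all clones were also low, at 1.51% and 0.885%. With a dye term in the model the median was again -0.144, since each dye held stage 4 on 2 arrays, and 10 of the 60 clones were at an unadjusted p below 0.05, against 2.4% of all clones. In each of these fits 0 clones were called after adjustment. A limma adjusted p that misses the threshold does not show that stages 4 and 1 had the same level.

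Among the named clones, Myt01-012A11 had direct log2 ratios of -0.184, -1.24, -0.93 and 0.686 on replicates 1 to 4 (mean -0.417 ± 0.859, SD, n = 4). In the limma fit its log2 change was -0.34 ± 0.253 (SE, adjusted p = 0.892). For Myt01-013H05 the direct ratios were 0.0118, -0.89, -0.23 and 0.549 (mean -0.14 ± 0.597), with a fitted change of -0.0598 ± 0.237 (SE, limma adjusted p = 0.968). Both were lowest on replicate 2 and highest on replicate 4, and their SD was larger than their mean. Myt01-011C11 gave 0.448, -0.26, 0.685 and 0.386 (mean 0.315 ± 0.404) and a fitted change of 0.401 ± 0.16 (SE, limma unadjusted p = 0.0469 and adjusted p = 0.892), higher in stage 4 on 3 of 4 arrays. Myt01-009H09 gave -0.112, 0.11, 0.28 and 0.221, at signals not well above background, and its limma adjusted p was 0.892.

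The direct ratios were then set beside the sum of the 3 successive mean ratios, which covers the same interval by way of stages 2 and 3. The sum had a median of -2.63 over the 60 clones (6.2-fold lower), with the middle 50% between -4.21 and -1.95 and a lowest value of -4.72 (26.4-fold). The direct ratio, with its median of -0.196, lay above the sum for 60 of 60 clones. Sum minus direct had a median of -2.49 and ranged from -4.25 to -0.726, whereas over all 1920 clones its median was -0.0351. For Myt01-012A11 the sum was -4.62 against a direct mean of -0.417, and for Myt01-013H05 it was -4.26 against -0.14.

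The direct ratios had errors of their own. From a limma fit to the deposited values, the 95% interval of the direct ratio had a median lower limit of -0.525 and a median upper limit of 0.157. It held 0 for 57 of the 60 clones. In this fit 3 of the 60 clones (5.0%) had an unadjusted limma p below 0.05, each with a ratio below 0. Of all 1920 clones 2.14% were at that level, in either direction, and 0 were called after adjustment. The lowest lower limit of any of the 60 clones was -1.27. Since the sum contains the values that chose the clones, a low sum is partly set by the choice, and its gap to the direct ratio is a description with no test. Across the clones the sum and the direct ratio went together (r = 0.754). Members were 3.12% of all clones. They made up 15 of the 20 clones lowest on the direct arrays, 22 of the 60 lowest and 1 of the 60 highest. The members share these arrays and moved much alike, so they are not separate observations.

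The 21 clones chosen by the mirrored rule, which rose in both steps, had sums of the opposite sign and direct ratios near 0. Their median sum was 0.926 and their median direct ratio -0.0131, with 13 of the 21 below 0. The spread of the direct ratio over all 1920 clones was small, with an SD of 0.134 against 0.778 for the sum. With print-tip loess, duplicate spots of all clones had an r of 0.3247, 0.3967, 0.7082 and 0.3704 on the direct arrays. On the other arrays it was 0.5725 to 0.9391. Among the 60 clones alone it was 0.662, 0.832, 0.892 and 0.686 on the direct arrays and 0.684 to 0.982 on the others. The part of this agreement between duplicates in the direct ratios was not tested.

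**Figure D3:**
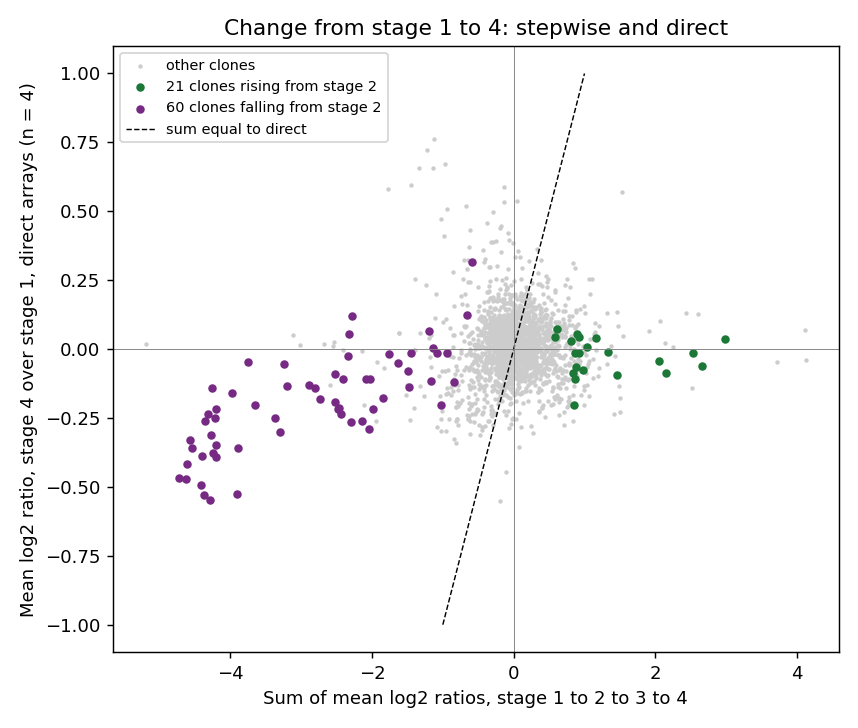
Each point is 1 clone, with the sum of its 3 successive mean log2 ratios on the x axis and its mean direct Stage4/Stage1 log2 ratio (n = 4 arrays) on the y axis, and the dashed line marks equal values. The 60 falling clones reach sums of -4.72 but direct ratios of only -0.547, and the 21 rising clones also lie near a direct ratio of 0.

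The single channels show where the successive and the direct arrays part. Each clone was ranked by its net signal among the 1920 clones within a channel of an array, from 0 for the dimmest to 100 for the brightest percentile, and the median over the 60 clones was taken for each array. In stage 1 this was 91.7 on the Stage2/Stage1 arrays (range 90.9 to 93.0, n = 4). In stage 2 it was 90.1 on the same arrays and 91.6 on the Stage3/Stage2 arrays (88.7 to 93.6). By this median the clones thus ranked among the brightest of these arrays in both early stages. Not every member did: the dim Myt01-009H09 had percentiles of 26.6 to 53.4 in stage 1 of the Stage2/Stage1 arrays.

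In the ripe stage the same median was 77.1 on the Stage3/Stage2 arrays (72.7 to 82.2) and 81.5 on the Stage4/Stage3 arrays (79.1 to 83.8). At spawning it was 68.6 on the Stage4/Stage3 arrays (64.3 to 70.9). The arrays of stage 3 did not overlap those of stages 1 and 2 on the arrays named so far, nor those of stage 4. The rank order of the channels thus followed the ratios that had chosen the clones.

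The Stage4/Stage1 arrays gave other ranks for the same stages. There the median percentile was 80.5 in stage 1 (69.5 to 89.3) and 77.9 in stage 4 (71.3 to 85.3), and these 2 ranges overlapped. In stage 1, 60 of 60 clones ranked lower than on the Stage2/Stage1 arrays, with a median difference of -11.4 percentile points. In stage 4, 48 of 60 ranked higher than on the Stage4/Stage3 arrays, with a median difference of 4.41. The stage 1 channels of the direct arrays thus ranked these clones lower than those of the Stage2/Stage1 arrays. The stage 4 channels ranked most of them higher than those of the Stage4/Stage3 arrays. Whether these were other animals is not given. The Stage2/Stage1 and Stage4/Stage3 arrays took part in the choice of the clones and the Stage4/Stage1 arrays did not. The part of the choice in these differences was not tested. The 21 rising clones, chosen by the mirrored rule, differed in the opposite direction. For them the percentile of each clone was averaged over the 4 arrays before the median over clones was taken. In stage 1 this median was 58.5 on the Stage2/Stage1 arrays and 76.6 on the Stage4/Stage1 arrays. Computed in the same way, that of the 60 falling clones was 91.8 and 79.3. In stage 4 the median of the rising clones was 80.8 on the Stage4/Stage3 arrays and lower on the Stage4/Stage1 arrays.

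**Figure D4:**
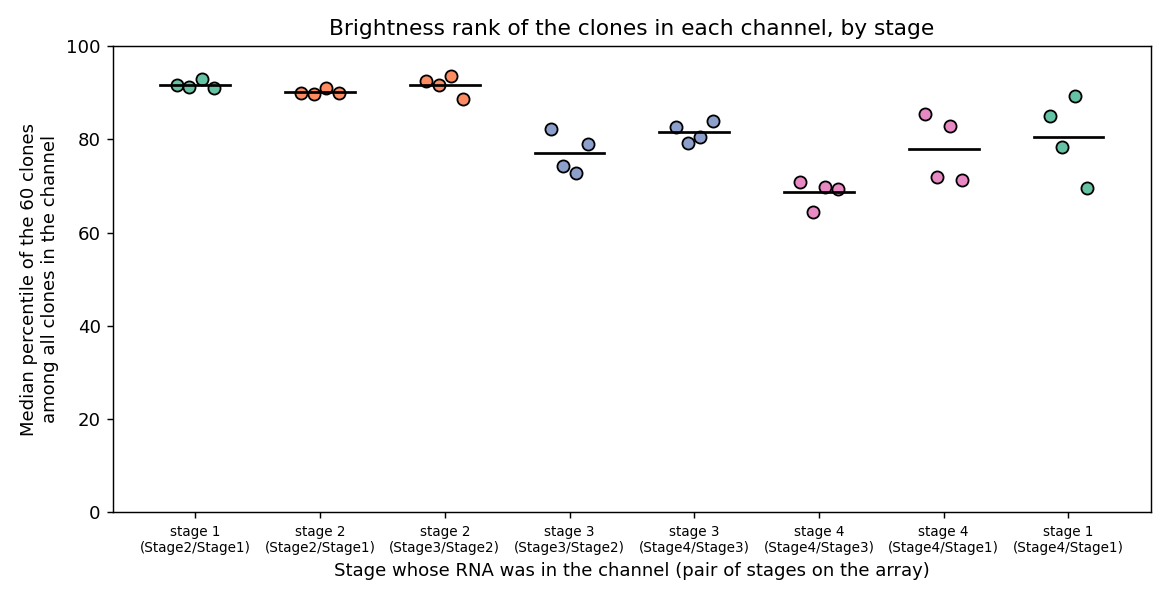
Median percentile of the 60 clones among all 1920 clones in each channel, by the stage whose RNA it held and the pair of stages on the array. Each point is 1 array and each bar the mean of 4 arrays, which falls from 91.7 in stage 1 to 68.6 in stage 4 on the successive pairs but is 80.5 and 77.9 for stages 1 and 4 on the Stage4/Stage1 arrays.

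The 60 clones had several things in common that the rule did not name. They were bright, with a median percentile of 85.3 for mean intensity (34.4 to 99.4), and 40 of the 60 were in the brightest 25% of all clones. Brighter members fell further, with r = -0.732 between this percentile and the sum over the 60 clones, which share all arrays. Brightness was not separate from the values that chose the clones. On the single Stage3/Stage2 and Stage4/Stage3 arrays its r with the members' ratio was -0.813 to -0.632. The part of the choice and of the measurement in this was not tested. The 440 other clones of that 25% had a median log2 ratio of -0.0944 from stage 2 to 3, 0.0534 from stage 3 to 4 and -0.0316 on the direct Stage4/Stage1 arrays. On these direct arrays the 40 bright members had a median of -0.227.

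Signal over background limited part of the falls. On single Stage3/Stage2 arrays 46 to 57 of the 60 clones were well above background in the ripe channel, and on single Stage4/Stage3 arrays 41 to 56 in the spawning channel. In the ripe channel of the Stage3/Stage2 arrays 2 of the 60 clones never stood well above background, nor did 2 in the spawning channel of the Stage4/Stage3 arrays, so their falls are bounds. On the Stage4/Stage1 arrays the same held for 7 clones in stage 4 and for 4 in stage 1. A signal well above background in every channel of the 16 arrays was found for 31 of the 60 clones, and for 316 of all 1920.

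The clones moved much alike over the 16 arrays. The correlation of their profiles had a median of 0.823 over the 1770 pairs of members, from 0.117 to 0.996, and 163 pairs were above 0.95. The rule sets part of this likeness. Clones with nearly the same profile may carry the same transcript, since the libraries can hold a cDNA more than once, and this was not tested because no sequences were used here.

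Their places in the clone library were uneven. Plates 13 to 15 held 27 of the 60 members among 288 clones (9.38%), against 33 among the 1632 clones of the other plates (2.02%), and 5 of the 20 plates held none. On plate 15, 10 of 96 clones (10.4%) were members. Plates 13 to 15 were singled out after these counts had been seen. On the slide the members were spread over all 16 print-tip blocks, with 1 to 9 in a block.

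The size of the falls depended on how the slide was normalized. With print-tip loess, which fits each of the 16 blocks on its own, the median of the 60 clones was -1.33 for Stage3/Stage2 and -0.885 for Stage4/Stage3, and 55 of the 60 still met the limits. With loess over the whole array 58 met them, with median centring 49 and without background correction 42. Among all 1920 clones, members included, 60 met the limits with print-tip loess and 60 with loess over the whole array. With median centring 52 did, and without background correction 43. Between the deposited values and print-tip loess, 4 clones moved towards 0 by more than 1 in their Stage3/Stage2 mean, from between -2.68 and -2.25 to between -1.13 and -0.227. These 4 were among the brightest clones, at percentiles of 95.2 to 98.9, and 20 of the 60 clones moved away from 0 instead.

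**Figure D5:**
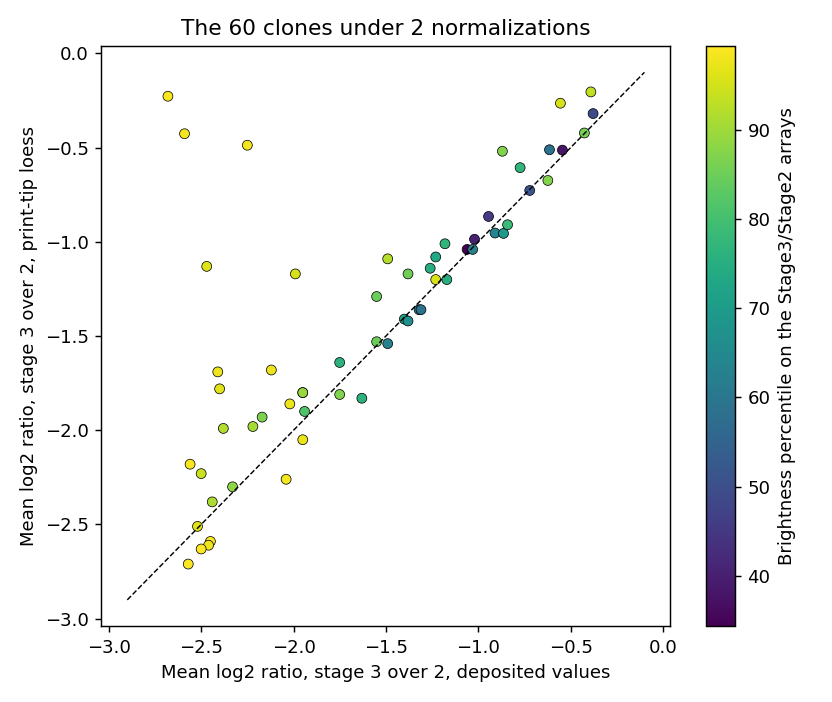
Mean Stage3/Stage2 log2 ratio of each of the 60 clones in the deposited values (x axis) and after print-tip loess of the scanner values (y axis), coloured by brightness percentile, with a dashed line at equal values. Most clones lie near the line, and the 4 that print-tip loess moves by more than 1 towards 0 have percentiles of 95.2 to 98.9.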

How the data were processed

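The authors scanned the slides and quantified them with GenePix, and their deposited scanner files give, for both dyes, the unnormalized intensity of every spot beside that of its surroundings. A second table deposited by the authors gives log2 ratios spot by spot, and the submitters' processing notes name limma. Its columns had correlations of 0.9817 to 0.999 and slopes of 0.9648 to 1.009 with the scanner ratios after loess over the array, which settled scale and direction, and medians of -0.04198 to 0.05.

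Each array had 4560 spots in 16 blocks: 3840 of the 1920 clones in duplicate, 112 alignment spots and 608 blanks. Duplicate spots were averaged. Descriptions use the deposited log2 values. The test used scanner foreground means with normexp correction (offset 50) against background medians, print-tip loess with control spots at weight 0, and limma 3.58.1 (R 4.3.3) on the 4 Stage4/Stage1 arrays (3 residual and 2.94 prior degrees of freedom), two-sided, with p-values adjusted by Benjamini-Hochberg across the 1920 clones. A clone counted as well above background where a spot exceeded it by 2 background SDs. No spot was saturated. The number of arrays limits the precision.

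The members and gene lists were chosen with earlier results of these data known. Neither the gene lists nor the male germ line markers could be applied, since neither the files nor the gene table used here links a clone to a gene. Of the rule for named genes, its branch for unpaired clones was used: the 2 members with the lowest sum of Stage3/Stage2 and Stage4/Stage3 means and the 2 with the highest direct Stage4/Stage1 mean. Groups and replicate numbers came from the sample titles. The test was tried on simulated data with 200 changed clones, in which 7 of the 200 calls were false. Alternatives were other background corrections and normalizations, the deposited values, each array left out, a filter on background, a dye term, B above 0, and all 16 arrays in 1 model. The plots come from matplotlib 3.10.9 under Python 3.11.15.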

Additional observations from a re-analysis of the deposited data

How the results depend on the processing

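The count of clones called between stages 4 and 1 was 0 of 60 and 0 of 1920 under each of the 16 alternatives run, the omission of each array included. The members' median Stage4/Stage1 log2 ratio, -0.144, was -0.693 in a loop model of all 16 arrays, which contains the arrays that chose the clones, and -0.566 in that model with the replicate number as a block, where again 0 clones were called. Apart from that block the numbers were not taken as pairs, since the labels do not say which arrays shared a mussel. Of the same-numbered pairs of arrays, 12 of 24 had deviations correlated above 0.1 (mean r 0.077), against 19 of 72 other pairs (mean r -0.0259). Same-numbered arrays were thus correlated more often, and a link between them was not tested. The median Stage2/Stage1 ratio, -0.237, was -0.142 without background correction, -0.306 with loess over the whole array, -0.344 in the deposited values and 0.0448 with median centring. Without background correction the median Stage3/Stage2 ratio was -0.919 (against -1.33), that of Stage4/Stage3 -0.516 (against -0.885) and that of the sum of 3 -1.61 (against -2.41), and scaling between arrays gave -1.96 for the sum. The causes were not tested. With each array left out in turn, the medians ran from -0.235 to -0.167 (without replicate 3) for Stage2/Stage1, from -1.45 to -1.18 for Stage3/Stage2, from -0.95 to -0.816 for Stage4/Stage3, from -0.261 (without replicate 4) to -0.0421 (without replicate 2) for Stage4/Stage1, and from -2.56 to -2.26 for the sum. Looser and stricter limits of the rule gave 67 and 46 members in place of 60. Of the 28 sets of 4 arrays tested for an array far from the others, 0 had one.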
